A study of Mus musculus with 16 samples.

Results

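Regulatory T cells (Treg) of the uterus in early pregnancy were compared with Treg of the lymph nodes that drain the uterus. The comparison takes 8 of the 16 libraries of the series, 4 of pregnant uterine Treg and 4 of lymph node Treg, assigned by their labels alone. All mice were of BALB/c background and carried an IRES-GFP reporter in the Foxp3 gene, so that Foxp3-positive cells could be sorted by their fluorescence. Lymph node Treg were sorted as CD4+Foxp3+CD25+ from para-aortic nodes of non-pregnant mice, 20 mice pooled for each library, and were sequenced in batch 2. Pregnant uterine Treg were sorted as CD4+Foxp3+CD25- from the uterus, 3 to 8 mice pooled for each library, and were sequenced in batch 1. Their source labels give days 6, 7 and 8 of pregnancy, while the titles give 8, 9, 10 and 11 as the last day of libraries 1 to 4. The labels give no age of the mice. The question was whether the program that sets uterine Treg apart from node Treg is also seen in pregnancy. Tissue, CD25 gate, pregnancy and sequencing batch all differ between the groups, and their parts in any difference cannot be told apart. Another group, 4 libraries of non-pregnant uterine Treg (CD4+Foxp3+CD25-, 20 mice for each library, batch 2), shares tissue and gate with the first and batch with the second. The last 4 libraries are of conventional T cells (CD4+Foxp3-) of the non-pregnant uterus, 20 mice for each library, batch 1, and enter here only the choice of genes above background and the spread shared by the fit.

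Treg are CD4-positive T cells that restrain other immune cells and depend on the transcription factor Foxp3. Those that circulate through lymph nodes use the chemokine receptor Ccr7 to enter, and live on interleukin-2 received through CD25, the alpha chain encoded by Il2ra. Treg settled in non-lymphoid tissue commonly carry other chemokine receptors, the interleukin-33 receptor Il1rl1 (ST2) and a set of calcium-binding and membrane-linked proteins of the S100, annexin and galectin families. In early pregnancy the uterine lining turns into decidua around the implanted embryo, and Treg there are known for restraining the maternal response to paternal antigens.

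Total counts were 1.72 M to 6.30 M (M for 1e6) in the lymph node libraries and 3.57 M to 15.2 M in the pregnant uterine libraries. Every library also held reads spread over genes that T cells do not use. Estimated from 1429 olfactory and vomeronasal receptor genes, an even background took 9.20% to 38.6% of the counts in lymph node Treg and 8.68% to 53.5% in pregnant uterine Treg, with pregnant library 4 the highest. Tests therefore ran on 4732 genes, those that code for protein and whose share of the counts, averaged over the 16 libraries, was above 5 times the background for their exonic length. Levels are normalized CPM, that is counts per 1e6 counts of these genes after TMM scaling, listed in the order of libraries 1, 2, 3 and 5 for lymph node and non-pregnant uterine Treg and 1 to 4 for pregnant uterine Treg. Fold changes are log2 of pregnant uterine over lymph node Treg with their standard error (SE), from edgeR's quasi-likelihood test adjusted after Benjamini and Hochberg, and a gene passed at an adjusted p below 0.05. In bulk libraries, fewer cells of a type and less RNA per cell cannot be told apart.

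The sorted identity was visible in both groups. Foxp3 was at 557, 911, 649 and 1038 normalized CPM in lymph node Treg and at 898, 406, 1083 and 525 in pregnant uterine Treg (log2 fold change -0.11 ± 0.42, adjusted p = 0.916), and the ranges overlapped. The T cell receptor component Cd3e was at 1052, 962, 818 and 867 in lymph node and 1271, 925, 1349 and 504 in pregnant uterine Treg, again overlapping. Il2ra, the transcript of the CD25 protein used for gating, was at 493, 461, 351 and 365 in the CD25-positive lymph node Treg and at 144, 235, 253 and 210 in the CD25-negative pregnant uterine Treg. Every pregnant uterine library was below every lymph node library for Il2ra, and none was at 0 (log2 fold change -0.99 ± 0.24, adjusted p = 0.0379). That call was lost in each of the 8 fits that left out 1 library.

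In pregnant uterine Treg 74 genes were higher and 37 were lower than in lymph node Treg, 1.56% and 0.782% of the 4732 genes tested. The 74 had a median log2 fold change of 1.53 (0.84 to 3.71) and the 37 a median of -1.46 (-3.99 to -0.98), against a median of 0.05 over all genes tested. Higher genes included S100 and galectin genes, the chemokine receptors Ccr2 and Cxcr3 and the interleukin-33 receptor Il1rl1. Lower genes included the node-homing receptor Ccr7, the chemokine receptor Ccr8 and the neuropeptide precursor Penk. The 4 libraries of each group did not overlap for 109 of the 111 genes, the exceptions being Ifi209 and Prr13. Without overlap, 6.85% of all tested genes were higher and 6.85% were lower.

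These calls depend on the choice of genes. Over all 30096 genes with enough counts for edgeR, 0 genes passed the threshold, with 934 at an unadjusted p under 0.05. All 111 genes kept their sign in that fit and 77 of them had an unadjusted p under 0.05 there, and the median of the genes above background moved from 0.05 to -0.17. Leaving out 1 of the 8 libraries at a time gave 29 to 85 higher and 12 to 33 lower genes, and 36 genes (27 higher, 9 lower) passed in all 8 of these fits. Without pregnant library 4, the one with the most background, 85 genes were higher and 33 lower, of which 62 and 25 were among the 111. Without the 5 of the 16 libraries with the most background (pregnant 2 and 4, lymph node 3, non-pregnant uterine 3 and 5), 30 were higher and 6 lower, and all 111 kept their sign. Called genes described below with a level or fold change belong to the 36 unless it is said otherwise. Of the 36, 26 also passed without those 5 libraries, and 10 did not: Ahnak (adjusted p = 0.132), Ccr7 (0.193), Ccr8 (0.0794), Cdc25b (0.0555), Chd7 (0.106), Ecm1 (0.185), Emb (0.0555), Lgals3 (0.16), S100a10 (0.176) and S100a4 (0.0879). In the mean of the 8 libraries compared, 7 of the 111 (Emp1, Fcer1g, Fosl2, Nabp1, Nol6, Slc4a7, Tyrobp) and 543 of the 4732 were at or under the background limit, and were tested because of the level in the other 8 libraries.

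**Figure D1:**
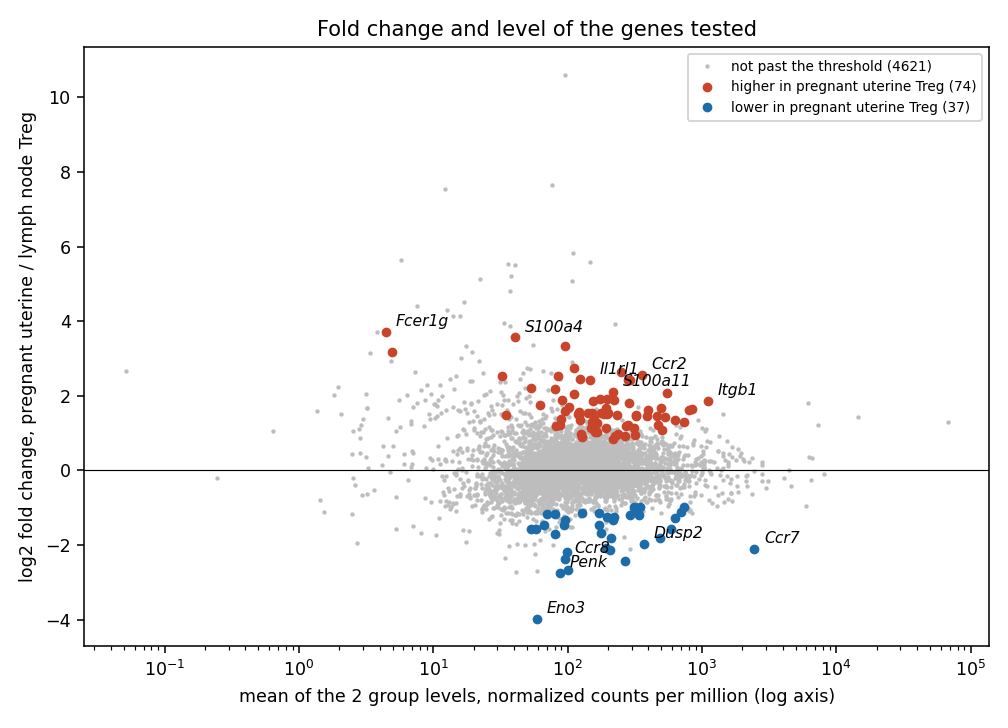
Log2 fold change of pregnant uterine over lymph node Treg (vertical axis) against the mean of the 2 group levels in normalized CPM (horizontal, log axis) for the 4732 genes tested. The 74 higher genes (red) lie between 0.84 and 3.71, the 37 lower genes (blue) between -3.99 and -0.98, and several genes with larger fold changes did not pass the test (grey).

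Of 12 genes of the S100, annexin and galectin list, all tested, 7 were higher in pregnant uterine Treg (S100a4, S100a6, S100a10, S100a11, Anxa2, Lgals1, Lgals3), 0 were lower and 5 did not pass. The median was 1.66 against 0.05 for all genes, and all 12 estimates were positive, or 11 of 12 with the scaling over all 30096 genes. The list also had 7 higher genes without pregnant library 4, and 3 without the 5 libraries of highest background. Of the 7, Lgals1 alone is not among the 36. S100 proteins are small calcium sensors, annexins bind membranes in a calcium-dependent way, and galectins bind sugar chains on surface proteins.

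S100a11 (ENSMUSG00000027907, chr3:93520488-93526287, GRCm38) had the lowest adjusted p of all genes tested. Its level was 116, 69.0, 76.0 and 64.9 normalized CPM in lymph node Treg and 356, 358, 341 and 358 in pregnant uterine Treg, a log2 fold change of 2.11 ± 0.22 (adjusted p = 6.78e-05). Every pregnant uterine library was far above every lymph node library, and the 4 pregnant libraries were close together. S100a4 (chr3:90603771-90606045), a regulator of cell motility, was at 10.7, 4.83, 5.56 and 3.68 in lymph node Treg and at 55.0, 108, 50.2 and 87.4 in pregnant uterine Treg (3.56 ± 0.57, adjusted p = 0.0017). S100a6 (chr3:90612882-90624181), its neighbour on chromosome 3, went from 103, 52.5, 78.8 and 44.1 to 342, 642, 427 and 317 (2.63 ± 0.37, adjusted p = 0.000509). Neither gene had overlapping groups, and pregnant library 2 was the highest for both.

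S100a10 and Anxa2 encode the partners of a membrane-linked heterotetramer. S100a10 was at 613, 359, 391 and 267 in lymph node Treg and at 1126, 1600, 1252 and 1161 in pregnant uterine Treg (1.66 ± 0.32, adjusted p = 0.00963). Anxa2 was at 99.2, 63.5, 58.4 and 66.9 in lymph node and 306, 270.4, 263 and 257 in pregnant uterine Treg (1.92 ± 0.26, adjusted p = 0.000509). Both were separated between the groups, and lymph node library 1 was the highest of its group for each. Lgals3, the galectin-3 gene, was at 11.5, 9.67, 9.27 and 7.69 in lymph node against 54.3, 75.0, 47.7 and 45.2 in pregnant uterine Treg (2.53 ± 0.48, adjusted p = 0.00763), again without overlap. Lgals1 went from 346, 136, 155 and 148 to 630.2, 844, 509.7 and 415 (1.61 ± 0.38, adjusted p = 0.0311), and passed only without lymph node library 1 or pregnant library 4 among the 8 fits. The other 5 members did not pass: Anxa1 had an estimate of 1.66 ± 0.65, the intermediate filament gene Vim 0.73 ± 0.26, Anxa5 0.56 ± 0.32, S100a13 0.36 ± 0.50 and Anxa6 0.16 ± 0.28.

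**Figure D2:**
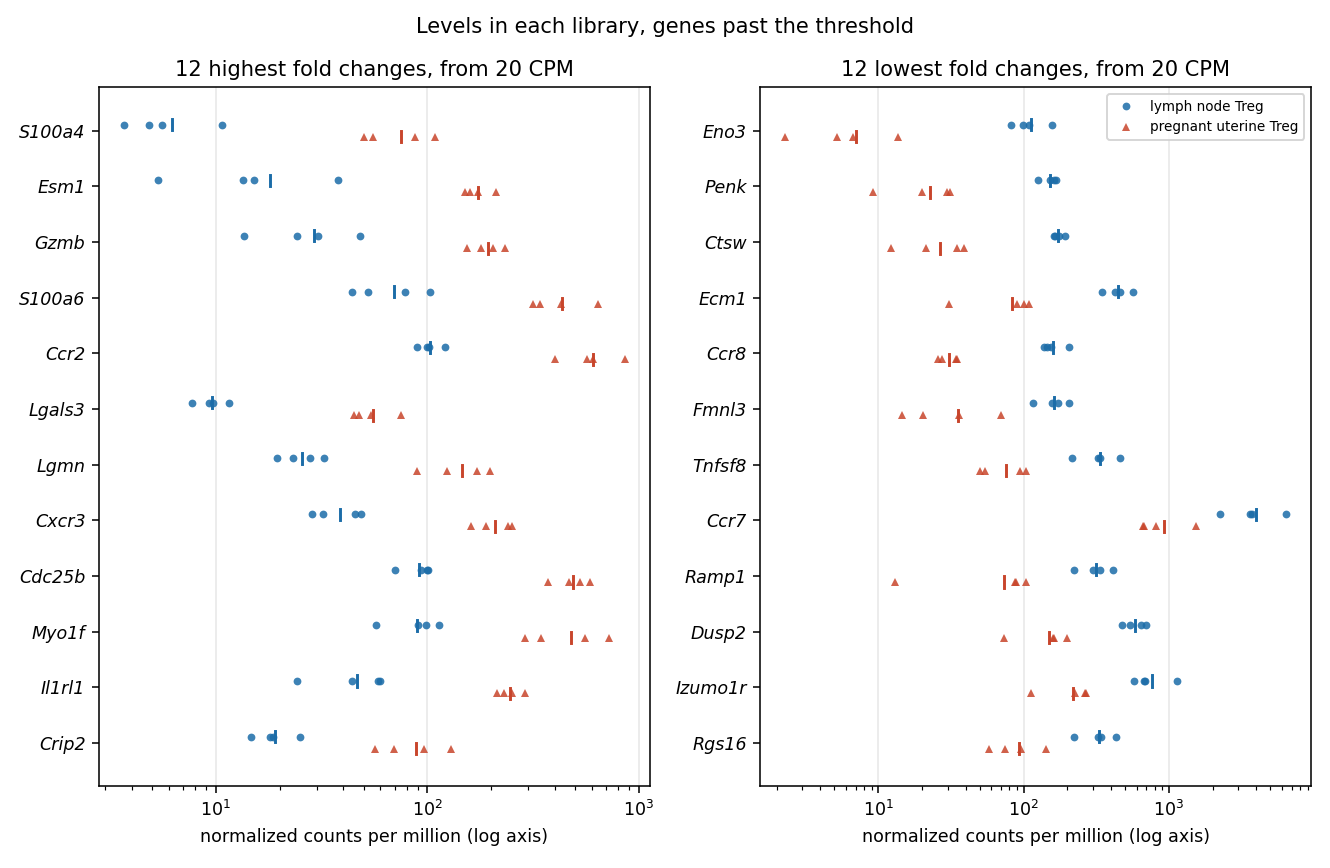
Level in each library, in normalized CPM on a log axis, of the 12 genes with the highest and the 12 with the lowest fold change, among called genes with a mean of at least 20 in the higher group and no overlap. Circles are the 4 lymph node libraries, triangles the 4 pregnant uterine libraries and vertical bars the group means, and the gap between the groups is wide for S100a4 and Lgals3 and narrow for Ccr7.

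Since 7 genes of this list passed in the same direction, promoters are shown. RefSeq (GRCm38.p6) promoters of 250 bases before to 50 after the start site could be matched for 53 of the 74 higher genes, 30 of the 37 lower genes and 3783 of the 4732 tested genes. The AP-1 site TGANTCA, read on both strands, was present in 10 of the 53 (18.9%) and 3 of the 30 (10%), against 4.84% of the tested genes and 7.93% of all 27025 promoters of this length. The 10 were S100a11, Anxa2, Ccr4, Cd84, Emp1, Glrx, Gzmb, Ifi203, Ifi209 and Lmna, and the 3 were Ecm1, Fmnl3 and Zfp36l1. The RUNX site TGTGGT was in 24.5% of the higher, 13.3% of the lower and 13.3% of the tested promoters, and the KLF site CCACCC in 34%, 40% and 35.7%. The ETS site CCGGAAG was in 9.43%, 6.67% and 22.7%, the TCF/LEF site CTTTGA in 13.2%, 13.3% and 12.3%, the forkhead site TGTTTAC in 3.77%, 0% and 2.78%, and the T-box site TCACACCT in 3.77%, 0% and 0.872%. The interferon response letters (GAAA, any 2 bases, GAAA) were in 5.66%, 3.33% and 3.89%, and the NF-kB letters (GGGA, any base, TTTCC) in 0%, 0% and 0.37%. These shares are descriptions of letters, and no test was made of them.

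The 250 bases before the start site of 4 of the genes that rose are given 5′ to 3′ in lower case, with every match to one of the searched motifs in capitals. They show the genes with 2 and 1 AP-1 matches in the family (S100a11 and Anxa2) beside the neighbours S100a6 and S100a4, which have none. The S100a11 stretch is chr3:93520246-93520495 on the plus strand, with a TCF/LEF match at -172 and AP-1 matches at -136 and -38 from the start. The Anxa2 stretch is chr9:69453433-69453682 on the plus strand, with KLF matches at -177, -81 and -7 and an AP-1 match at -95. The S100a6 stretch is chr3:90612644-90612893, plus strand, with RUNX matches at -217, -145 and -79. The S100a4 stretch is chr3:90603520-90603769, plus strand, with a KLF match at -224.
S100a11: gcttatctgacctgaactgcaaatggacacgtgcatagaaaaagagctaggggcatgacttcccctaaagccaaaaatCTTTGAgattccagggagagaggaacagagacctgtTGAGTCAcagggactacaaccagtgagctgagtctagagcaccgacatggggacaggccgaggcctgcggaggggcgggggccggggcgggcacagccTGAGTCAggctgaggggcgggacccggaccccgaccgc
Anxa2: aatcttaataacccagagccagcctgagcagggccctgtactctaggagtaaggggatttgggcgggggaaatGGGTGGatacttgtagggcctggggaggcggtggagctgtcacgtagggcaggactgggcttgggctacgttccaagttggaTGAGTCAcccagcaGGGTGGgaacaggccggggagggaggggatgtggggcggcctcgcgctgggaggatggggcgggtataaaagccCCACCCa
S100a6: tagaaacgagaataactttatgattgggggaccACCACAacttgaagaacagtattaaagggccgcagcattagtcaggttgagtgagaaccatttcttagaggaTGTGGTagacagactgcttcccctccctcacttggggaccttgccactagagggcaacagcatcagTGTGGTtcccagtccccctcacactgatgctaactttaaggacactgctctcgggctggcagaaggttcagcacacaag
S100a4: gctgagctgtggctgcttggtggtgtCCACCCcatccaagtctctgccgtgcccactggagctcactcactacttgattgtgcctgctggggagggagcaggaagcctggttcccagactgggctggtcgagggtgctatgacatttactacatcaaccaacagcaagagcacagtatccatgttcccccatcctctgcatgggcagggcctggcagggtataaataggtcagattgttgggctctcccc

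Chemokine receptors, which guide cells along gradients into particular sites, were called in both directions. Of 9 tested members of a list of 15, 3 were higher (Ccr2, Cxcr3, Ccr4) and 2 lower (Ccr8, Ccr7), and 4 (Cxcr6, Ccr9, Cxcr4, Ccr6) did not pass. The list's median was 1.01, but 0.121 without pregnant library 4 and 0.301 with the scaling over all 30096 genes. Without the 5 libraries of highest background 2 of the 9 were higher and 0 lower, with a median of 0.0874. Ccr2, a receptor for monocyte-attracting chemokines that effector T cells also carry, was at 99.8, 89.8, 121 and 102 normalized CPM in lymph node Treg and at 608, 570.2, 857 and 400.1 in pregnant uterine Treg (2.57 ± 0.36, adjusted p = 0.000509). Cxcr3, the receptor for interferon-induced chemokines, was at 32.2, 48.3, 45.4 and 28.4 in lymph node and 241, 188, 250.3 and 160.2 in pregnant uterine Treg (2.46 ± 0.39, adjusted p = 0.00164). The pregnant uterine libraries were above the lymph node libraries for both. Ccr4, used for entry into skin and other barrier tissue, went from 44.8, 55.2, 37.1 and 55.9 to 188, 149, 147 and 149.5 (1.71 ± 0.36, adjusted p = 0.0172). That call was lost without lymph node library 1, 2 or 3 or pregnant library 1.

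Ccr7, which takes cells into lymph nodes, was at 2232, 3620, 3726 and 6403 in lymph node Treg and at 1543, 675, 662 and 822 in pregnant uterine Treg (-2.11 ± 0.38, adjusted p = 0.00535). It had the highest mean level of the genes called, and pregnant library 1 lay closest to the lymph node range. Ccr8, often counted among markers of tissue and tumour Treg, went in the other direction from the tissue receptors, from 137, 154, 145 and 204 to 34.6, 34.5, 25.7 and 27.6 (-2.38 ± 0.41, adjusted p = 0.00363), and the 4 pregnant libraries were close together. Among list members below the background limit, and so not tested, Ccr3 was at 5.97, 10.4, 11.1 and 7.69 in lymph node Treg and at 103, 138, 93.2 and 100.4 in pregnant uterine Treg, without overlap.

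Other node-homing and quiescence genes mostly did not pass. Of 16 tested members of that list, Ccr7 was lower and Klf3 and Il7r were higher, and 6 of the 16 estimates were positive (median -0.163). The transcription factor genes Lef1 (-0.53 ± 0.31), Tcf7 (-0.19 ± 0.36) and Klf2 (-0.66 ± 0.25) and the egress receptor S1pr1 (0.41 ± 0.35) did not pass. Il7r, the interleukin-7 receptor, went from 111, 115, 122 and 85.6 to 245, 210.3, 274 and 158 (1.04 ± 0.27, adjusted p = 0.0488), and Klf3 from 204, 173, 122 and 142 to 373, 303, 345 and 249 (0.98 ± 0.25, adjusted p = 0.041). The groups were separate for both, but each call held only in the fit without pregnant library 4 among the 8.

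Genes of effector and tissue Treg were more often higher than lower. Of 17 tested members of 23, 5 were higher (Il1rl1, Gzmb, Rora, Maf, Icos) and 1 lower (Ccr8), with a median of 0.857 and 14 positive estimates. Without the 5 libraries of highest background 1 of the 17 passed. Il1rl1, the interleukin-33 receptor, was at 24.1, 44.2, 58.4 and 59.5 in lymph node Treg and at 290.1, 213, 252 and 232 in pregnant uterine Treg (2.42 ± 0.34, adjusted p = 0.000509). Every pregnant library was more than 3 times every lymph node library. Gzmb, the cytotoxic protease granzyme B, was at 13.7, 24.2, 48.2 and 30.4 in lymph node against 179.7, 155, 205 and 232 in pregnant uterine Treg (2.75 ± 0.62, adjusted p = 0.0243), and passed in 4 of the 8 fits without 1 library. It is also an NK cell marker, and the NK list is given further on.

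Rora, a nuclear receptor of innate and tissue lymphocytes, went from 206, 293, 414 and 671 to 1442, 1087, 1002 and 1315 (1.61 ± 0.36, adjusted p = 0.0214), and its call was lost without lymph node library 1, 2 or 3 or pregnant library 1. Maf went from 121, 89.8, 108 and 69.2 to 219, 323, 138 and 430 (1.51 ± 0.36, adjusted p = 0.0323), and the costimulator Icos from 357, 396, 383 and 548 to 1352, 864, 1256 and 694 (1.31 ± 0.33, adjusted p = 0.0398). Both were separate between the groups, but Maf passed in 2 and Icos in 1 of the 8 fits. Gata3, a partner of Foxp3 in tissue Treg, was at 266, 288, 250.2 and 316 in lymph node and 312, 231, 316 and 259 in pregnant uterine Treg (-0.0014 ± 0.25, adjusted p = 0.999), with overlapping groups. Areg, the repair factor amphiregulin, was at 29.0, 20.7, 51.9 and 23.7 in lymph node and 96.1, 56.1, 58.1 and 13.8 in pregnant uterine Treg (0.86 ± 0.54, adjusted p = 0.456), with pregnant library 4 below every lymph node library and the other 3 above them. Klrg1, a marker of terminally differentiated Treg, showed the same split, at 46.5, 54.5, 73.2 and 48.8 in lymph node and 126, 224, 196 and 46.0 in pregnant uterine Treg (1.42 ± 0.65, adjusted p = 0.307).

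Other higher genes follow singly. Itgb1, the beta-1 integrin chain through which cells hold to collagen and fibronectin, was at 329, 543, 430 and 613 in lymph node and 2285, 1147, 2514 and 1003 in pregnant uterine Treg (1.86 ± 0.33, adjusted p = 0.00522), without overlap. It was the only one called among 7 tested integrin chains (list median 0.369), and its frequent partner Itga4 had an estimate of 0.76 ± 0.26 (adjusted p = 0.137). Itgb3, below the background limit and not tested, was at 15.1, 23.5, 22.2 and 24.8 in lymph node and 136, 92.2, 188 and 49.8 in pregnant uterine Treg, without overlap. Myo1f, a myosin of motile leukocytes, went from 57.4, 98.7, 89.9 and 113 to 555, 345, 719 and 289.7 (2.42 ± 0.32, adjusted p = 0.000495). Lmna, the lamin A gene, went from 74.4, 123, 146 and 170.2 to 599, 509, 489 and 177 (1.79 ± 0.34, adjusted p = 0.00671), and there pregnant library 4 only just exceeded the highest lymph node library. Lamc1, a laminin chain of basement membranes, was at 64.6, 115, 88.0 and 102 in lymph node and 226, 215, 364 and 370.2 in pregnant uterine Treg (1.67 ± 0.30, adjusted p = 0.00535). The scaffold gene Ahnak, whose protein binds S100A10 and annexin 2, went from 411, 346, 316 and 358 to 871, 972, 903 and 881 (1.34 ± 0.25, adjusted p = 0.00671), and its pregnant libraries were all about alike.

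Esm1, a secreted proteoglycan better known from endothelium, had the largest fold change after S100a4 among the 36. It was at 5.33, 15.2, 38.0 and 13.4 normalized CPM in lymph node Treg and at 173, 159, 211 and 150.2 in pregnant uterine Treg (3.34 ± 0.50, adjusted p = 0.00111). Endothelial markers summed to 157 to 519 normalized CPM in lymph node and 397 to 1760 in pregnant uterine libraries, and 1 of the 9 was above background, the adhesion gene Pecam1 at 0.81 ± 0.28, and their part in the Esm1 value was not tested. Cdc25b, a phosphatase that drives entry into mitosis, was at 93.2, 101, 99.2 and 70.2 in lymph node and 468, 370.1, 529 and 590.2 in pregnant uterine Treg (2.43 ± 0.38, adjusted p = 0.00163). Hist1h1c, a linker histone, went from 42.0, 30.4, 35.2 and 64.9 to 219, 165, 158 and 179 (2.05 ± 0.27, adjusted p = 0.000495). Neither pair of groups overlapped. Glrx, which reduces glutathionylated proteins, was at 85.9, 88.4, 72.3 and 81.3 in lymph node against 331, 281, 369.6 and 264 in pregnant uterine Treg (1.93 ± 0.24, adjusted p = 0.000399), and Slamf6, a homotypic receptor of lymphocytes, at 197, 296, 291 and 206 in lymph node against 806, 608, 717 and 573 in pregnant uterine Treg (1.45 ± 0.27, adjusted p = 0.00604). The groups were again separate. The remaining genes of the 27 were Fam129a (1.45 ± 0.23), Chd7 (1.47 ± 0.28), Rfk (1.49 ± 0.24), Emb (1.68 ± 0.31), Dgat1 (1.87 ± 0.35), Slc4a7 (1.89 ± 0.31), Fli1 (1.37 ± 0.25) and Samsn1 (1.21 ± 0.23).

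Core Treg genes were called only as lower. Of 15 tested members, 4 were lower (Izumo1r, Tnfrsf4, Tnfrsf9, Il2ra) and 0 higher, with a median of -0.502 and 3 positive estimates (2 with the scaling over all 30096 genes). Il2ra encodes the CD25 protein on which the cells were selected, so its call carries no weight of its own, which leaves 3 lower genes. The part of the gate in these 3 was not tested. Izumo1r, folate receptor 4, was at 1131, 686, 675 and 573 in lymph node Treg and at 264, 267, 225 and 113 in pregnant uterine Treg (-1.82 ± 0.37, adjusted p = 0.0133), a call lost without lymph node library 1. Tnfrsf4, the costimulator OX40, was at 961, 841, 894 and 859 in lymph node and 426, 334, 349 and 85.1 in pregnant uterine Treg (-1.57 ± 0.36, adjusted p = 0.0248), and Tnfrsf9, the costimulator 4-1BB, at 382, 488, 395 and 486 in lymph node and 249, 224, 236 and 156 in pregnant uterine Treg (-1.02 ± 0.25, adjusted p = 0.0379). The groups were separate for these 3 genes, but Tnfrsf4 passed in 2 and Tnfrsf9 in none of the 8 fits without 1 library, and without pregnant library 4 the list had 2 lower genes. Without the 5 libraries of highest background 0 of the 15 passed. Tnfrsf4 and Tnfrsf9 were also the lower genes among 9 tested members of the TNF receptor family, which had 0 higher and a median of -0.228.

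Several defining Treg genes did not pass in either direction. Ctla4, the inhibitory receptor of Treg, was at 1393, 1805, 1863 and 2179 in lymph node and 3236, 2442, 2265 and 1055 in pregnant uterine Treg (0.31 ± 0.34, adjusted p = 0.694). Lrrc32, which holds latent TGF-beta on the surface, was at 269.9, 393, 323 and 707 in lymph node and 490, 219, 506 and 199 in pregnant uterine Treg (-0.26 ± 0.72), and Itgae, the CD103 integrin chain, at 251, 338, 271 and 326 in lymph node and 518, 379, 508 and 387 in pregnant uterine Treg (0.60 ± 0.40). Ctla4 and Lrrc32 overlapped, while every Itgae value of the pregnant libraries was above those of the lymph node. The cytokine Il10 was at 57.8, 82.8, 94.5 and 57.5 in lymph node and 41.7, 60.8, 17.7 and 74.3 in pregnant uterine Treg (-0.59 ± 0.53), also overlapping. Ikzf2, the Helios gene, had an estimate of 0.28 ± 0.24.

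Around the interleukin-2 receptor, 2 genes were lower (Il2ra, Cish) and 1 higher (Il7r) of 13 tested. With Il2ra left aside because its protein was gated on, Cish remains as the lower gene. The part of the gate in the Cish value was not tested. Cish, a feedback inhibitor induced by interleukin-2, went from 402, 557, 448 and 477 to 326, 155, 207 and 133 (-1.19 ± 0.29, adjusted p = 0.0379), and this passed only without pregnant library 1 among the 8 fits. The beta chain Il2rb (-0.69 ± 0.31), the common chain Il2rg (-0.07 ± 0.27), Stat5a (-0.66 ± 0.33), Stat5b (0.74 ± 0.30) and Socs1 (-1.02 ± 0.47) did not pass. The list's median was -0.355 with all libraries and 0.116 without the 5 of highest background.

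The genes that fell and held in all 8 fits, beside Ccr7 and Ccr8, were Dusp2, Ctsw, Penk, Ecm1, Tnfsf8, Ramp1 and Tbc1d4. Dusp2, a phosphatase that switches off MAP kinases, was at 694, 638, 543 and 478 in lymph node Treg and at 198, 163, 161 and 72.8 in pregnant uterine Treg (-1.98 ± 0.30, adjusted p = 0.0014). Ctsw, the cathepsin W gene of lymphocytes, was at 193, 175, 165 and 163 in lymph node and 38.8, 12.2, 34.6 and 21.5 in pregnant uterine Treg (-2.68 ± 0.36, adjusted p = 0.000499). Both were lower in every pregnant library, by a wide margin for Ctsw. Penk, the enkephalin precursor, was at 152, 166, 162 and 126 in lymph node against 9.22, 31.4, 20.1 and 29.9 in pregnant uterine Treg (-2.76 ± 0.52, adjusted p = 0.00671). Ecm1, a secreted matrix protein of activated T cells, was at 459, 423, 348 and 566 in lymph node against 109, 101, 89.6 and 30.7 in pregnant uterine Treg (-2.43 ± 0.49, adjusted p = 0.012), with pregnant library 4 the lowest. Tnfsf8, the CD30 ligand, was at 216, 336, 327 and 459.8 in lymph node against 95.1, 50.2, 54.3 and 104 in pregnant uterine Treg (-2.15 ± 0.34, adjusted p = 0.00163). None of the 3 had overlapping groups.

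Ramp1, which makes the calcitonin-like receptor respond to the neuropeptide CGRP, was at 410, 299, 334 and 222 in lymph node and 88.8, 103, 87.9 and 13 in pregnant uterine Treg (-2.09 ± 0.41, adjusted p = 0.0105), and Tbc1d4, a regulator of glucose transporter traffic, at 267, 247, 253 and 317 in lymph node and 93.5, 63.2, 101 and 79.7 in pregnant uterine Treg (-1.68 ± 0.23, adjusted p = 0.000509). The groups were separate for both, and pregnant library 4 was far below the other 3 for Ramp1. Eno3, an enolase better known from muscle, had the lowest fold change of all, 156, 109.8, 82.5 and 99.7 in lymph node against 5.22, 13.7, 6.66 and 2.30 in pregnant uterine Treg (-3.99 ± 0.83, adjusted p = 0.0136), but was not among the 36 since its call was lost without lymph node library 1 or pregnant library 1. Rgs16, a brake on chemokine receptor signals, went from 224, 430.1, 342 and 323 to 143, 75.0, 96.8 and 58.2 (-1.81 ± 0.36, adjusted p = 0.0106), lost without lymph node library 2. Fmnl3, an actin-nucleating formin, went from 157, 204, 116 and 173 to 35.8, 20.4, 70.1 and 14.6 (-2.18 ± 0.49, adjusted p = 0.0248), and held in 3 of the 8 fits.

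**Figure D3:**
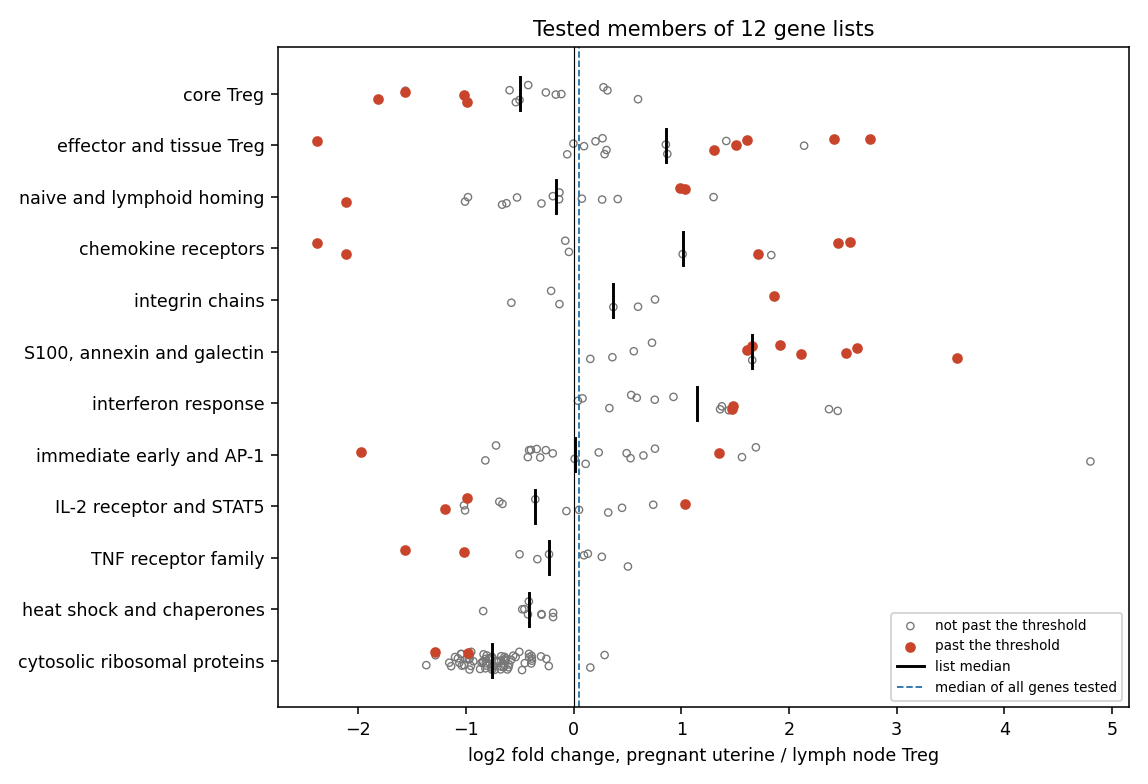
Log2 fold change of pregnant uterine over lymph node Treg (horizontal axis) for the tested members of 12 gene lists, filled in red where past the threshold, with the list median as a black bar and the median of all genes tested (0.05) as a dashed line. S100, annexin and galectin members lie to the right with 7 of 12 past the threshold, and ribosomal protein members cluster around -0.758 with 2 of 73 past it.

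Among genes induced by interferon, 2 rose in pregnant uterine Treg and 12 did not pass. Of 14 tested members of 18, Irf7 and Rtp4 were higher and 0 lower, all 14 estimates were positive (12 with the scaling over all 30096 genes), and the median was 1.14 against 0.05 for all genes. For 7 of them (Irf7, Rtp4, Ifi27l2a, Ifit3, Ifit1, Oas1a, Isg15) every pregnant library was above every lymph node library. Over all tested genes that held for 6.85%, and 1.56% were called higher. Irf7, the factor that amplifies interferon production, was at 97.2, 124, 92.7 and 179 in lymph node Treg and at 392, 250.4, 387 and 349 in pregnant uterine Treg (1.48 ± 0.32, adjusted p = 0.0189). Rtp4, an interferon-induced chaperone, was at 40.3, 57.3, 88.0 and 74.9 in lymph node and 185, 179.7, 188 and 168 in pregnant uterine Treg (1.47 ± 0.35, adjusted p = 0.0306). Irf7 passed in 3 and Rtp4 in 1 of the 8 fits without 1 library, and without the 5 libraries of highest background 0 of the 14 passed. Plasmacytoid dendritic cells, which use Irf7 strongly, had markers that summed to 156 to 398 normalized CPM in lymph node and 190 to 1270 in pregnant uterine libraries, and their part in the result was not tested.

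Ifit1, which binds foreign RNA, was at 13.4, 15.9, 42.6 and 37.8 in lymph node and 195, 103, 235 and 61.3 in pregnant uterine Treg (2.45 ± 0.76, adjusted p = 0.106), and Ifit3 at 7.46, 8.29, 18.5 and 10.7 in lymph node and 30.2, 32.2, 79.6 and 88.2 in pregnant uterine Treg (2.37 ± 0.67, adjusted p = 0.0752). Those are among the larger differences of the list, and they did not pass. Cmpk2, an interferon-induced nucleotide kinase outside the list, passed, going from 12.6, 33.8, 42.6 and 27.1 to 85.8, 135, 172 and 131 (2.19 ± 0.48, adjusted p = 0.0211), in 3 of the 8 fits. Non-pregnant uterine Treg, sequenced with the lymph node libraries, had Irf7 at 171, 163, 148 and 149, Rtp4 at 46.8, 53.8, 99.5 and 38.6 and Ifit3 at 4.53, 5.52, 9.48 and 15.1. These values lay within or near the lymph node range, and the list's median against lymph node was -0.138 there. In the direct test of pregnant against non-pregnant uterine Treg the 14 had a median of 1.01 against 0.004 over all genes, and 0 passed: Rtp4 differed by 1.60 ± 0.35 (adjusted p = 0.313), Ifit3 by 2.77 ± 0.68 (0.486) and Irf7 by 1.13 ± 0.32 (0.679). Pregnancy, pool size and sequencing batch cannot be told apart in that comparison.

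**Figure D4:**
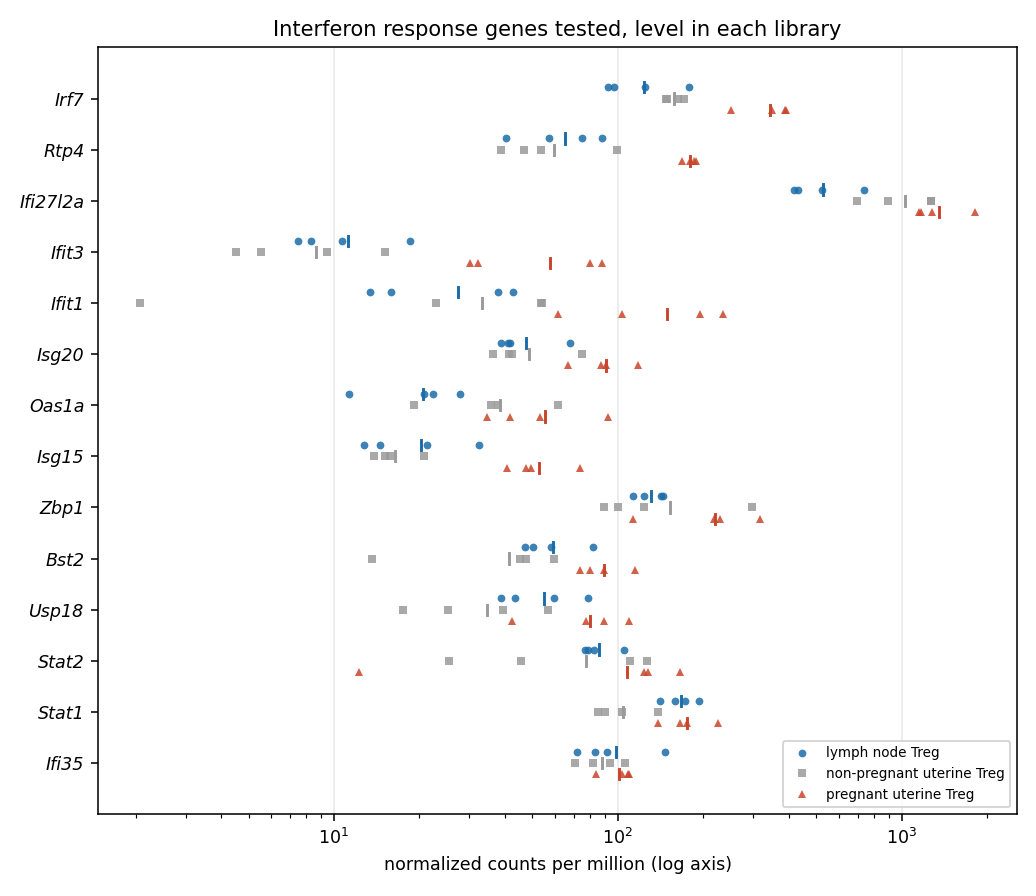
Level of the 14 tested interferon response genes in each library, in normalized CPM on a log axis, ordered by the p of pregnant uterine against lymph node Treg. Triangles (pregnant uterine Treg) lie above both circles (lymph node Treg) and squares (non-pregnant uterine Treg) for Irf7, Rtp4 and Ifit3, and triangles and circles overlap from Zbp1 downward.

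Other programs showed few or no calls. In the list of tissue residency 0 of 11 passed (median 0.239), with Cd69 at -0.24 ± 0.30, Rgs1 at -0.10 ± 0.27, Crem at 1.11 ± 0.32 (adjusted p = 0.0805) and Bhlhe40 at -0.96 ± 0.29 (adjusted p = 0.0965). Of the immediate early and AP-1 genes, whose median changed sign with the scaling (0.00975, or -0.17 over all 30096 genes), there were 1 higher (Fosl2, 1.35 ± 0.31, in 3 of the 8 fits) and 1 lower (Dusp2) of 21, with Egr1 at 1.69 ± 0.49 (adjusted p = 0.0833), Fos at 0.53 ± 0.43 and Junb at -0.41 ± 0.21. NF-kB subunits and targets (14 tested), TGF-beta genes (9), helper cytokines and regulators (4), glycolysis (13) and the CD3 complex and receptor signalling (14) had 0 calls, with medians of -0.127, -0.257, -0.0166, 0.11 and -0.0329. The glycolysis median changed sign with the scaling over all 30096 genes (-0.131), and 1 NF-kB gene was higher without pregnant library 4. Of the CD28 family and checkpoint receptors, Icos alone was higher among 8 (median 0.329), and Tigit had 0.87 ± 0.32 (adjusted p = 0.186). In the steroid list Nr3c1, the glucocorticoid receptor, was higher (0.93 ± 0.20, adjusted p = 0.0148, in 5 of the 8 fits) and its target Tsc22d3 lower (-1.11 ± 0.26, adjusted p = 0.0307, in 2), of 5 tested. That list's median was 0.179, or -0.0414 with the scaling over all 30096 genes.

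Growth and vessel factors had Penk lower and 0 higher of 5 tested (median -0.289), and 10 of the 15 were below the background limit. Rln3, the relaxin-3 gene, was at 88.5, 39.4, 37.1 and 49.8 in lymph node and 25.9, 34.9, 25.1 and 48.3 in pregnant uterine Treg (-0.69 ± 0.66, adjusted p = 0.642), with overlapping groups. Ribosomal protein genes had 2 lower (Rps19, Rps6) and 0 higher of 73, a median of -0.758 and 2 positive estimates. Rps19 went from 1222, 737, 996 and 639.8 to 355, 491, 368 and 257 (-1.29 ± 0.34, adjusted p = 0.0498) and Rps6 from 618, 439.8, 453 and 329 to 281, 265, 203 and 184 (-0.98 ± 0.25, adjusted p = 0.0474). Rps19 passed in 0 and Rps6 in 1 of the 8 fits without 1 library. Without pregnant library 4, 0 of the 73 passed and the median was -0.73, and over all 30096 genes the scaling gave -1.15. Heat shock and chaperone genes had 0 calls among 9, all with negative estimates (median -0.416). That included Hsp90ab1 at -0.84 ± 0.29 (adjusted p = 0.152). Without the 5 libraries of highest background 2 of the 9 estimates were positive, with a median of -0.281.

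Cell cycle genes gave 0 calls among 7 tested (median -0.285), among them the DNA replication genes Pcna (-0.28 ± 0.22) and Mcm5 (-0.60 ± 0.28). The mitosis genes of the list were mostly under the background limit and were not tested. Mki67, the marker of cycling cells, was among these, at 38.4, 45.6, 75.1 and 56.5 normalized CPM in lymph node Treg and 122, 105, 106 and 220 in pregnant uterine Treg, and the groups did not overlap.

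Set beside non-pregnant uterine Treg, some of these genes had similar and some smaller fold changes. They were chosen for their values in pregnancy, so smaller values in the other group can follow from that choice. That group against the same lymph node libraries gave 44 higher (0.93%) and 17 lower genes (0.359%) of 4732. Both contrasts share the lymph node libraries, so values are only placed side by side. S100a11 had 1.96 ± 0.22 there against 2.11 ± 0.22 in pregnancy, with levels of 358, 341, 313 and 266 in the non-pregnant uterus. S100a6 had 2.44 ± 0.37, Anxa2 1.78 ± 0.26, Cxcr3 2.46 ± 0.39, Cdc25b 2.42 ± 0.38 and Itgb1 2.16 ± 0.34, and each passed in that contrast too. Ccr7 had -1.69 ± 0.37, Ccr8 -2.03 ± 0.41, Penk -2.29 ± 0.51 and Dusp2 -1.87 ± 0.30, which also passed. Il1rl1 had 1.18 ± 0.33 (adjusted p = 0.109), Tnfsf8 -1.16 ± 0.33 (0.109), Ramp1 -0.97 ± 0.40 (0.373) and Samsn1 0.28 ± 0.23 (0.756), which did not pass. These last genes were among those named for a low p between the uterine groups.

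**Figure D5:**
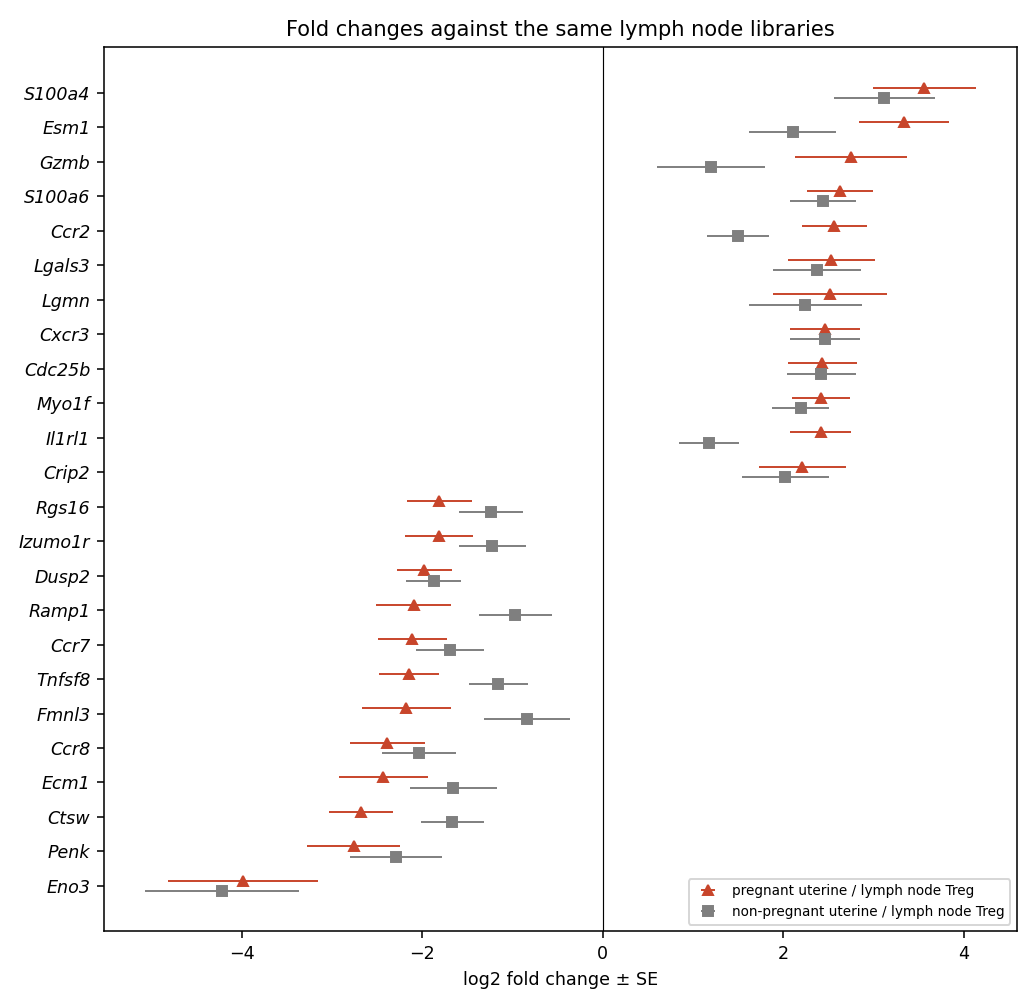
Log2 fold change with its standard error for the 24 genes with the highest and lowest fold changes, in pregnant uterine over lymph node Treg (triangles) and in non-pregnant uterine over the same lymph node libraries (squares). The pairs nearly coincide for Cxcr3 and Cdc25b, while Il1rl1 (2.42 against 1.18) and Ramp1 (-2.09 against -0.97) lie apart.

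The difference between the uterine groups was tested directly, pregnant against non-pregnant. Of 4732 genes 0 passed (0%), with 301 at an unadjusted p under 0.05 and DESeq2 calling 5 higher and 2 lower. Among the 111 genes 32 had an unadjusted p under 0.05 (21 of the higher, 11 of the lower), but they were chosen on the same pregnant libraries, so this count supports nothing. The lowest adjusted p among them was 0.313. Il1rl1 was at 133, 116, 107 and 61.3 in non-pregnant and 290.1, 213, 252 and 232 in pregnant uterine Treg, without overlap, a difference of 1.24 ± 0.32 (adjusted p = 0.647). Ccr2 was at 342, 321, 309 and 190.4 in non-pregnant and 608, 570.2, 857 and 400.1 in pregnant uterine Treg (1.07 ± 0.34, adjusted p = 0.679), also separate. Samsn1, an adaptor that restrains lymphocyte signals, was at 196, 158, 267 and 209 in non-pregnant and 561, 302, 379.7 and 339.6 in pregnant uterine Treg (0.93 ± 0.23, adjusted p = 0.486).

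On the lower side, Tnfsf8 was at 111, 153, 218 and 117 in non-pregnant and 95.1, 50.2, 54.3 and 104 in pregnant uterine Treg (-0.99 ± 0.33, adjusted p = 0.679), Ctsw differed by -1.01 ± 0.34, Ramp1 by -1.13 ± 0.41, Nol6 by -1.62 ± 0.36 and Srfbp1 by -1.12 ± 0.36. The estimates were negative for all 5, and 0 passed. For Ctsw the libraries of the uterine groups overlapped. Against lymph node Treg, Nol6 passed in 0 and Srfbp1 in 2 of the 8 fits without 1 library. mt-Atp6, a mitochondrially encoded subunit of ATP synthase, was at 15.8, 20.0, 26.9 and 11.7 in lymph node, 19.1, 16.8, 15.0 and 21.7 in non-pregnant and 52.4, 61.6, 56.0 and 36.0 in pregnant uterine Treg. Against lymph node Treg it passed in 1 of the 8 fits without 1 library. It differed by 1.51 ± 0.38 between the uterine groups (adjusted p = 0.539). The share of all mitochondrial counts was 0.956% to 2.12% in lymph node and 1.03% to 1.92% in pregnant uterine libraries. By contrast S100a11 differed by 0.14 ± 0.21, Cxcr3 by -0.0022 ± 0.36 and Cdc25b by 0.01 ± 0.36, with SEs that leave room for a difference in either direction.

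Marker sums of other cell types were often higher in pregnant uterine libraries, but calls came only from the NK list. Ranges of the sums were separate between the groups for NK and B cell markers and overlapped for the other lists. NK cell markers summed to 144 to 227 normalized CPM in lymph node and 266 to 539 in pregnant uterine libraries, and 3 of 6 tested were higher: Gzmb, Tyrobp and Fcer1g. Tyrobp, a signalling adaptor of myeloid and NK cells, was at 1.07, 0, 1.85 and 1.00 in lymph node and 7.68, 3.92, 12.5 and 11.5 in pregnant uterine Treg (3.17 ± 0.73, adjusted p = 0.0286), and Fcer1g, another such adaptor, at 0.213, 0.690, 0.927 and 1.00 in lymph node and 8.71, 5.49, 12.3 and 6.13 in pregnant uterine Treg (3.71 ± 0.95, adjusted p = 0.0474). Both were low in every library, 3 counts being worth 0.640 to 2.78 normalized CPM in the lymph node libraries, and passed in 2 and 0 of the 8 fits. They were among the tested genes through the uterine conventional T cells, where Tyrobp averaged 1170 and Fcer1g 347. Without the 5 libraries of highest background 0 of the 6 NK genes passed. The defining NK receptor Ncr1 was at 2.56, 9.67, 11.1 and 6.35 in lymph node and 1.02, 16.1, 12.4 and 55.2 in pregnant uterine Treg, and Klrb1c at 0, 0.690, 3.71 and 0 in lymph node and 1.23, 0, 0.525 and 0 in pregnant uterine Treg, both under the background limit.

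Macrophage and dendritic cell markers summed to 179 to 259 in lymph node and 219 to 794 in pregnant uterine libraries, with 10 of 10 tested estimates positive (median 1.99) and 0 called. Complement C1qb was at 0.213, 0, 0.927 and 0 in lymph node and 5.02, 1.57, 25.1 and 13 in pregnant uterine Treg, and Lyz2 at 8.53, 31.1, 29.6 and 17.7 in lymph node and 12.6, 69.1, 164 and 269 in pregnant uterine Treg, the latter highest in pregnant libraries 3 and 4. Lgmn, a lysosomal protease that macrophages express strongly, passed, from 23.0, 32.5, 27.8 and 19.4 to 172, 124, 197 and 88.9 (2.52 ± 0.63, adjusted p = 0.0436), but in none of the 8 fits. Fibroblast and stroma markers summed to 60.8 to 733 and 135 to 2590, and erythroid markers to 4.48 to 52.8 and 6.66 to 478. S100 and galectin genes, Ccr2, Il1rl1 and Lmna are expressed by such cells too, and the part of these cells in the results was not tested. The plasmacytoid dendritic cell list, whose sums are given with Irf7, had 5 of 7 tested estimates positive and 0 called (median 1.38). Without the 5 libraries of highest background 4 of the 7 were positive, with a median of 0.342. Its member Cox6a2 averaged 0.107 in lymph node Treg, 0.388 in pregnant uterine Treg and 215 in uterine conventional T cells. C1qb of the macrophage list averaged 0.285, 11.2 and 255 in the same order. Epithelial markers summed to 29.6 to 98.2 and 40.5 to 468, with 3 of 3 tested estimates positive and 0 called (median 3.18), and smooth muscle markers to 33.9 to 247 and 81.6 to 739 with 1 tested and 0 called. B cell markers, none tested, summed to 447 to 721 and 759 to 1000. B cell, mast cell, decidua and trophoblast lists had 0 members above background.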

How the data were processed

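RNA was sequenced from pools of sorted cells with SMART-Seq v4 and Nextera XT, per the labels' protocols. Neither kit marks strand, so reads from a gene and an overlapping or antisense partner are mixed. The deposited values are raw read counts per gene. Trimmomatic, HISAT2, SAMtools, featureCounts, DESeq2 and the build GRCm38 are named in the submitters' processing notes without versions. The 16 single-library files held the same counts as the table of 49585 genes, of which 49326 were named through GENCODE M21. The labels do not say whether pools were independent, so p-values measure only the spread between libraries, which may be technical.

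The deposited counts were fitted with edgeR 4.0.16 in R 4.3.3 (TMM, robust quasi-likelihood test, all 16 libraries, 12 residual degrees of freedom). Genes above background were those with a mean share of counts per exonic base over 5 times that of receptor genes. On simulated data with 4732 genes, 28.4% of 2-fold, 91% of 4-fold and 100% of 8-fold changes were recovered in this comparison, with 5 false calls. Every simulated gene had the same common spread, and differences in background between libraries were not simulated. The shares may therefore differ in the real data. Alternatives were other gene filters, DESeq2 1.42.0 and its size factors, fewer libraries and a replicate block. Named genes were the 12 highest and 12 lowest called genes with at least 20 normalized CPM and no overlap, the 5 in each direction with the lowest p between uterine groups, up to 4 per list with the lowest p and at least 5 CPM, and fixed genes; other genes named (those called in all leave-one-out fits, and list members beyond 4) were chosen after their values were seen, and 1 gene of the rule is not reported here. Members and lists were chosen with earlier results of these data known.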

Additional observations from a re-analysis of the deposited data

Results flagged for a closer look

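The 105 named genes, except the untested Mki67, were examined in lymph node and in pregnant uterine Treg. Of 208 groups of 4 libraries, 12 had 1 library that lay apart from the other 3 on the log2 scale (Dixon's test at 95%, which chance meets in about 1 in 20 groups, or 10 of the 208). Pregnant library 4 was the lowest in 6 of them: Ramp1 at 13 normalized CPM, Ecm1 at 30.7, Tnfrsf4 at 85.1, Nfkbid at 7.66, Rpl15 at 91.2 and Rel at 271. This is the library with 53.5% background. Ramp1, Ecm1 and Tnfrsf4 passed in the comparison with lymph node Treg also when it was left out, but Tnfrsf4 passed in only 2 of the 8 fits without 1 library.

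S100a11 was lowest in pregnant library 3 at 341, a small distance from 3 libraries that nearly coincided (356, 358, 341 and 358). The ribosomal gene Rps28 was highest in pregnant library 2 at 158. Among lymph node Treg, library 5 was lowest for the kinase Lck at 1630 and for the death receptor Fas at 57.5 and highest for Fosl2 at 96.0, and library 1 was highest for the chaperone Hspa8 at 1040.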

How the results depend on the processing

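No named gene past the threshold changed direction under any alternative run. Some named genes that had not passed did change sign. Foxp3 went from -0.11 to 0.269 without the 5 libraries of highest background, and Lrrc32 from -0.26 to 0.303 with the replicate block. Counts of higher and lower genes against lymph node Treg (74 and 37 in pregnant, 44 and 17 in non-pregnant uterine Treg) became 0 and 0 in both over all genes past edgeR's filter and with no filter (905 and 2001 genes at an unadjusted p under 0.05 in non-pregnant, 934 and 2334 in pregnant uterine Treg). They were 152 and 91, and 89 and 44, with DESeq2. Without the 5 libraries of highest background they were 30 and 6, and 12 and 5. Leaving out 1 library gave 29 to 85 and 12 to 33 in pregnant uterine Treg, lowest without lymph node library 2, and 15 to 46 and 4 to 16 in non-pregnant uterine Treg. Fitting the 2 groups alone gave 76 and 34 in non-pregnant uterine Treg, and a background multiple of 10 gave 27 lower there. The uterine groups differed in 0 genes, in 5 and 2 with DESeq2, and in 1 higher without the 5 libraries. The cause of these shifts was not tested.

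Replicate numbers do not pair pregnant uterine with lymph node libraries: deviations correlated at 0.291, -0.0422 and -0.375 for numbers 1, 2 and 3. Whether they pair non-pregnant uterine with lymph node libraries was not checked. With the replicate block, 55 genes were higher and 21 lower in pregnant, and 49 and 28 in non-pregnant uterine Treg, with 64 of the 111 called. Of the 36 genes that passed in all 8 leave-one-out fits, Ecm1 alone was not called with the block (adjusted p = 0.0631). Of simulated 2-fold changes in this comparison, 28.4% were recovered.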

Other observations

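Of the cell cycle and integrin list members below the background limit, which had no test, every pregnant library was above every lymph node library for 4 of 12 cell cycle genes (Mki67, Top2a, Birc5, Aurkb) and 1 of 5 integrin chains (Itgb3), and below for 0. Their shares of the counts were at most 5 times the background, and the genes were chosen after their values were seen. How often all genes below the limit are separate in this way was not counted, so these counts cannot be weighed. In non-pregnant uterine Treg Mki67 was at 30.2, 115, 129.5 and 82.0, Itgb3 at 97.7, 51.7, 53.7 and 106 and Ccr3 at 56.4, 54.0, 54.5 and 7.54 normalized CPM. The matrix protein gene Sparc was at 5.74, 15.7, 606 and 524 in pregnant libraries 1 to 4 and at 1.49, 9.67, 13 and 3.01 in lymph node libraries 1, 2, 3 and 5, so pregnant libraries 3 and 4 stood far above libraries 1 and 2.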
